A study of Mus musculus with 3 samples.

Results

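The Schlafen genes are a family of interferon-inducible genes that lie side by side in the mouse genome, and 7 of them, Slfn1, Slfn2, Slfn3, Slfn4, Slfn5, Slfn8 and Slfn9, were taken by symbol from the 55536 mouse genes of the gene tables. They were measured in bone marrow-derived macrophages of C57BL/6J mice that had been stimulated with lipid A, a Toll-like receptor 4 agonist and the lipid anchor of bacterial endotoxin, at 100 ng/ml for 50 min. RNA of the chromatin fraction, which holds transcripts still being made or held at the template, was depleted of ribosomal RNA and sequenced as total RNA in 3 libraries of this 1 group. The labels number the libraries as biological replicates but give the same donor code for all 3, so the spread between them may be partly technical. Age and sex are labelled as not collected. The labelled RNA input was 1000 ng in replicate 1, 250 ng in replicate 2 and 500 ng in replicate 3. Untreated cells and other fractions were not analysed here, so the levels below describe stimulated cells and carry no response to lipid A.

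Schlafen proteins share an amino-terminal core that in several members binds or cleaves transfer RNA. Short members consist of little more than that core, intermediate members add a linker region, and long members add a carboxy-terminal part related to helicases and are mostly found in the nucleus. Type I interferon, which macrophages begin to make after Toll-like receptor 4 is engaged, raises several of these genes through the factor ISGF3, whose DNA target is called the interferon-stimulated response element (ISRE). Slfn2 is the member best known in immune cells: its loss in mice disturbs the resting state of T cells and monocytes, and its protein protects transfer RNA from cleavage under stress. Slfn1 was named for its growth-suppressing effect in thymocytes. Slfn4 is known as a gene of myeloid cells.

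The 7 genes occupy 264 kb of chromosome 11 (GRCm38/mm10, chr11:82951349-83215154) in GENCODE M21, which places 22 genes in that interval, and the 7 members are its only protein-coding genes. In order along the chromosome they are Slfn5 (chr11:82951349-82964840, + strand), Slfn9 (chr11:82978390-82991830, - strand), Slfn8 (chr11:83002158-83020810, - strand), Slfn2 (chr11:83065112-83070678, + strand), Slfn1 (chr11:83116849-83122670, + strand), Slfn4 (chr11:83175186-83190216, + strand) and Slfn3 (chr11:83191330-83215154, + strand). The annotated coding part is 337 codons in Slfn1 and 378 in Slfn2, the short members. It is 602 codons in the main Slfn4 transcript and 517 or 640 in the coding Slfn3 transcripts, the intermediate members. It reaches 884 codons in Slfn5 and 910 in both Slfn8 and Slfn9, the long members.

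The start regions of the 3 long genes among the 7 members held the ISRE core. This core is a pair of GAAA words separated by any 2 bases, searched on both strands of the promoter windows of RefSeq (GRCm38.p6). These windows run from upstream of each annotated start to just past it, and all 7 members had at least 1 (8 windows in all, Slfn8 having a pair). The core was found for 3 of 7 members, Slfn5, Slfn8 and Slfn9 (4 of 8 windows), and for 3.99% of all 27025 genes of the table (3.44% of its 32851 windows). Among the 39 interferon-stimulated genes of a list used below that had a window, 23 held it. Slfn14, a long gene outside the 7, had no match recorded in the same search, and whether it had a window is not given here. The stretches around the 3 cores are shown because they set Slfn5, Slfn8 and Slfn9 apart from the other members in this search. Each is read 5′ to 3′ on the strand of the gene with the core in capitals. They are chr11:82951887-82951986 (+ strand) for Slfn5, chr11:82991836-82991935 (- strand) for Slfn9 and chr11:83020819-83020918 (- strand) for Slfn8, each of 100 bases and upstream of the RefSeq start.
Slfn5: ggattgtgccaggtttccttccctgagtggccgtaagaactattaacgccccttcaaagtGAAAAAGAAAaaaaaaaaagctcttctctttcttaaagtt
Slfn9: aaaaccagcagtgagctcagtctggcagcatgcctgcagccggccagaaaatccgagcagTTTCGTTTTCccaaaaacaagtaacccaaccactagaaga
Slfn8: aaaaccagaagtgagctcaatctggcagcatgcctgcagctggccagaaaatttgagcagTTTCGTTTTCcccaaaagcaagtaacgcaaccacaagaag

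The core began 155 bases before the RefSeq start in Slfn5, on the coding strand. In Slfn9 and Slfn8 it lay on the opposite strand, with its first printed base 45 and 48 bases before the start. From the other RefSeq start of Slfn8 the same core began 136 bases upstream. The upstream windows of Slfn8 and Slfn9 were 80.2% identical when aligned, against 45.5% to 53.4% for the other 20 pairs of members. A kappaB consensus, the target of the NF-kappaB factors that lipid A activates, was found for Slfn9 and Slfn1 (2 of 7 members, 5.14% of all genes, 4.51% of all windows). A match is a run of letters and not a measured binding site.

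Levels fell into a high group and a low group. Of the 7 members, 6 were detected, meaning at least 10 expected counts in each library, against 21.9% of all 55536 genes. All 7 are protein-coding, and 9665 of the 22028 protein-coding genes were detected. TPM, transcript abundance corrected for length and scaled to a fixed sum per library, is given below as the authors' values for replicates 1, 2 and 3 in that order.

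Slfn2 had the highest level of the family, at 182, 114 and 161 TPM (152 ± 35.1, SD, n = 3), which ranked it 212 among 22028 protein-coding genes. These values rest on 3507, 4158 and 3944 expected counts. Slfn8 followed at 87.8, 42.8 and 58.4 TPM (63.0 ± 22.8, SD, n = 3; rank 632). Its lowest library was below the highest library of Slfn5, which stood at 72.5, 39.0 and 51.4 TPM (54.3 ± 16.9, SD, n = 3; rank 748). Slfn2 was above Slfn8 in all 3 libraries without overlap of their ranges, by 2.41 times in the means. Slfn8 was above Slfn5 within each of the 3 libraries, by 1.10 to 1.21 times, although their ranges overlapped.

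The intermediate members and Slfn9 were far lower. Slfn3 was at 5.94, 3.31 and 5.02 TPM (4.76 ± 1.33, SD, n = 3; rank 4886). Slfn9 was at 5.29, 2.07 and 2.71 TPM (3.36 ± 1.70, SD, n = 3; rank 5750). Slfn4 was at 2.55, 1.84 and 3.62 TPM (2.67 ± 0.90, SD, n = 3; rank 6283). The ranges of these 3 genes overlapped. Within libraries, Slfn3 was above both others in 3 of 3, and Slfn9 was above Slfn4 in 2 of 3. The step from Slfn5 down to Slfn3 was 11.4 times in the means, with no overlap.

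Slfn1 was at 0.41, 0.02 and 0.07 TPM, on 9, 1 and 2 expected counts, and did not pass the count minimum. The exact 95% Poisson intervals of those counts, which cover counting error only, run from 4.12 to 17.1 in replicate 1, 0.0253 to 5.57 in replicate 2 and 0.242 to 7.22 in replicate 3. Replicate 1, the library with the fewest counts in all, had the most Slfn1 counts, and with so few counts no ratio between libraries is given.

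**Figure D1:**
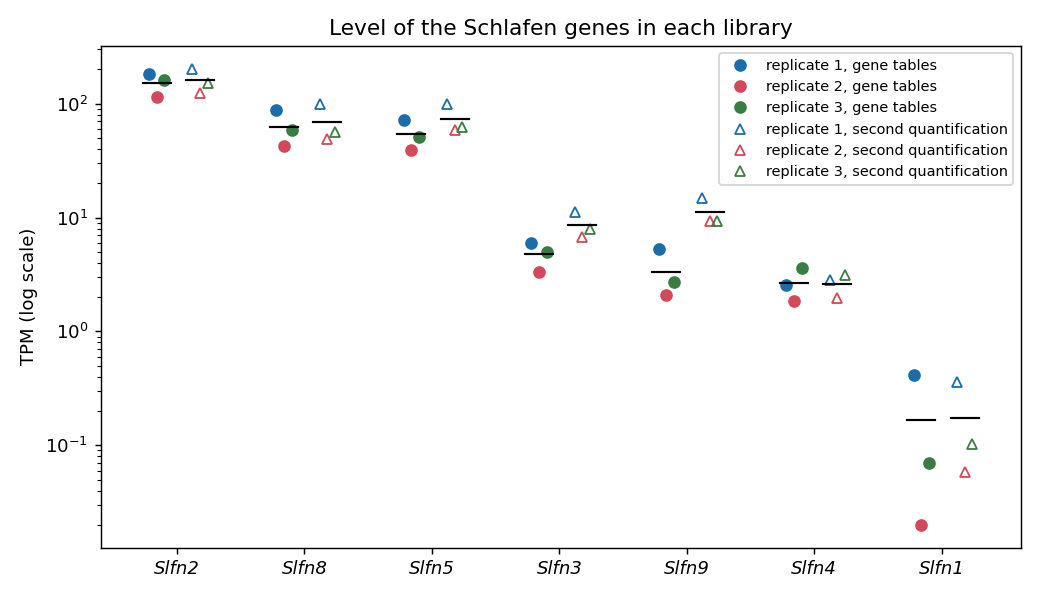
TPM (log scale) of the 7 Schlafen genes in each library, with filled circles for the deposited gene tables, open triangles for gene sums of the second quantification, and black bars for the mean of 3 libraries. Slfn2, Slfn8 and Slfn5 lie between 39.0 and 203 TPM in both, Slfn3, Slfn9 and Slfn4 between 1.84 and 14.9, and Slfn1 below 0.5.

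Together the 7 genes summed to 357, 203 and 282 TPM (280 ± 77.0, SD, n = 3). Slfn2 alone made up 54.7% ± 3.17 (SD, n = 3) of the sum, and Slfn2, Slfn5 and Slfn8 together 96.1% ± 0.258. The shares of Slfn9 (1.16% ± 0.286) and Slfn4 (0.969% ± 0.290) varied, relative to their means, about as much as the sum did. All 7 members had their lowest TPM in replicate 2. Protein-coding genes as a whole also took a smaller share of all TPM there, at 22.4%, 16.4% and 20.4% in replicates 1, 2 and 3, which is why the libraries are compared below after scaling.

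Libraries were compared on TMM CPM, counts brought to a common library size by the trimmed mean of M-values and not corrected for length. Of the 6 members with enough counts, 0 differed by 2-fold or more between their highest and lowest library, where 22.2% of the 13262 genes tested did. Among protein-coding genes, 1882 of the 10325 tested did. The median ratio of highest to lowest library was 1.40 over the 6 members, 1.53 over all tested genes and 1.48 over the tested protein-coding genes. With 3 libraries of 1 group no contrast between conditions exists, and these ratios describe the spread between libraries.

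Slfn2 and Slfn5 varied least. Slfn2 had 291, 253 and 284 TMM CPM, a ratio of 1.15, and Slfn5 had 318, 279 and 287, a ratio of 1.14. Slfn8, at 305, 209 and 226, stood higher in replicate 1 than in the other two, by up to 1.46 times. Slfn3 had 14.2, 10.6 and 13.4 TMM CPM, a ratio of 1.34.

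The remaining pair showed the widest spread. Slfn9 had 29.4, 16.4 and 16.1 TMM CPM, a ratio of 1.82 that fell to 1.01 without replicate 1 and rose to 2.23 when libraries were scaled by their totals alone. Slfn4 went another way, with 9.89, 10.2 and 16.6 TMM CPM, highest in replicate 3. Its ratio of 1.67 fell to 1.03 without replicate 3.

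Of the 6 members, 5 were highest in replicate 1 and 4 were lowest in replicate 2. The median log2 deviation from the mean of the 3 libraries was 0.14 in replicate 1, -0.22 in replicate 2 and 0.00 in replicate 3 over the members, against 0.02, 0.00 and 0.01 over all tested genes. The replicate 2 value kept its sign but came to -0.07 without replicate 1, -0.16 without replicate 3, -0.06 in the second quantification and -0.33 with library totals. Replicate 2 also had the lowest labelled RNA input and the lowest protein-coding share; the part of either in the members' values was not tested.

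Other interferon genes from a list of 50 interferon-stimulated genes gave a scale for the family. Of these, 49 were detected, with a median of 26.2 TPM. By mean TPM Slfn2 exceeded 45 of the 50, Slfn8 exceeded 42 and Slfn5 exceeded 40, whereas Slfn3 exceeded 8, Slfn9 7, Slfn4 6 and Slfn1 only 1. The highest of the list were Parp14, an ADP-ribosyltransferase, at 320 ± 141 TPM, Gbp5, a guanylate-binding protein, at 257 ± 154, and Rsad2, which encodes the antiviral enzyme viperin, at 235 ± 160 (SD, n = 3). The lowest were Igtp, an interferon-induced GTPase, at 0.613 ± 0.232 TPM and Ifit1bl1 at 0.10 ± 0.085.

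The list was lowest in replicate 2, as most members were, but with larger differences. Its median log2 deviation was 0.23, -0.34 and 0.08 in replicates 1, 2 and 3, and 35 of 49 genes were lowest in replicate 2. Of the 49, 17 differed by 2-fold or more between libraries, and 3 did so without replicate 2. Cxcl10, a chemokine, had 119, 20.7 and 108 TMM CPM, and Ifit1, an antiviral RNA-binding protein, 93.5, 20.1 and 105. These were the widest ratios of the list, at 5.72 and 5.20. Ifi204, a DNA sensor, at 384, 349 and 356 TMM CPM, and Ddx58, which encodes the RNA sensor RIG-I, at 101, 99.0 and 97.9, were the steadiest. The 6 Schlafen members lay between these ends, with Slfn2 and Slfn5 near the steady one.

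**Figure D2:**
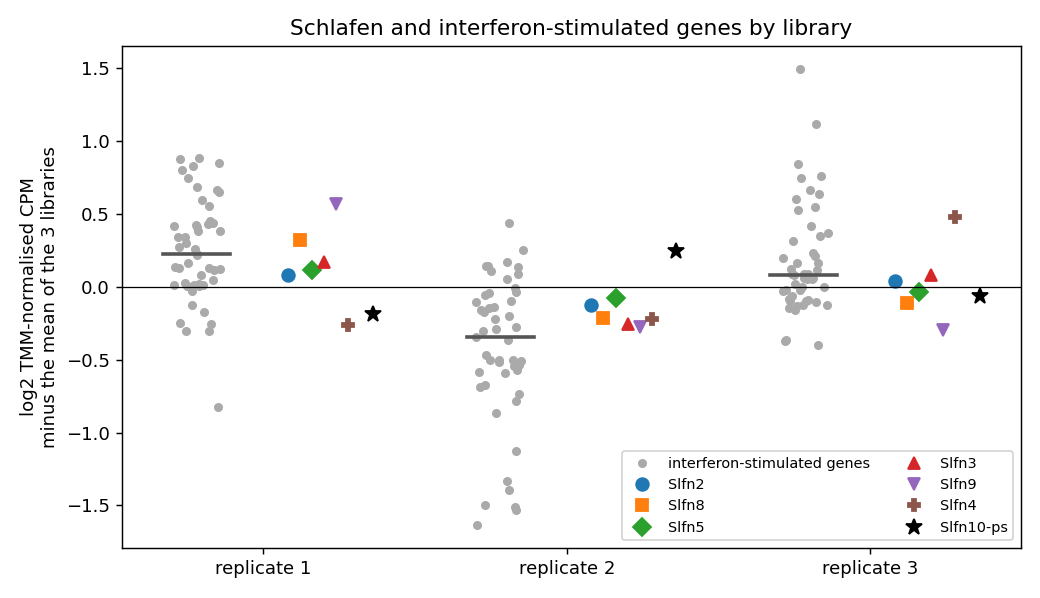
Difference of each gene's log2 TMM-normalised CPM from its own mean over the 3 libraries, for 49 interferon-stimulated genes (grey points, with a bar at their median), the 6 tested Schlafen genes and the pseudogene Slfn10-ps. In replicate 2 all 6 members lie below 0 (in the second quantification Slfn9 does not), the median of the grey points is -0.34 and Slfn10-ps is at 0.24.

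Genes of interferon production and signalling were present in the same libraries. All 12 of that list were detected and 1, Ifnb1, the gene of interferon beta itself, differed by 2-fold or more, at 9.39, 3.95 and 17.8 TMM CPM. In TPM the highest were Irf1, an interferon-regulated transcription factor, at 371 ± 119, Socs3, an inhibitor of cytokine signalling, at 87.8 ± 21.3, and Irf3, a factor that switches on Ifnb1, at 69.7 ± 17.6 (SD, n = 3). Irf9, the DNA-binding subunit of ISGF3, had 50.5, 48.7 and 46.8 TMM CPM, and Ifnar2, a chain of the type I interferon receptor, 84.8, 82.6 and 82.8, the smallest ratios of the list. Ifnb1 at 16.3 ± 11.6 TPM and Socs1 at 1.37 ± 0.096 were the lowest. Of a list of 14 antiviral enzymes and RNA-binding proteins, nucleases among them, 13 were detected and 3 differed by 2-fold or more, Rnaset2b by 2.54 times and Isg20, an exonuclease, by 2.25 times. Isg20, Eif2ak2 and Adar are also among the 50 interferon-stimulated genes. Zc3hav1, an antiviral RNA-binding protein, at 94.7 ± 20.4 TPM was the highest of that list and Ang, at 0.120 ± 0.137, the lowest.

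The cell label was checked against marker genes. All 10 macrophage markers were detected, with summed levels of 763, 731 and 760 TPM. On the TMM scale they ran the other way from the members: their median log2 deviation was -0.26, 0.22 and -0.03, 7 of 10 were lowest in replicate 1 and 7 highest in replicate 2, and 2 differed by 2-fold or more, Csf1r by 2.56 times and Itgam by 2.62 times. The part of this in the members' values was not tested. Of 9 T cell markers, 1 was detected in the gene tables, Cd4, their sum was 1.22 to 2.46 TPM, and 4, Cd3d, Cd3e, Cd3g and Trac, were at 0 in all 3 libraries. There, no marker of B cells (0 of 5), neutrophils (0 of 8) or natural killer cells (0 of 5) passed the count minimum, and their sums were at most 0.20, 1.45 and 0.18 TPM. Of 5 dendritic cell markers 2 passed, Zbtb46 and Xcr1, with sums of 3.06 to 4.06 TPM. A second quantification of the same libraries by the authors, described below, gave more: 5 of 9 T cell, 1 of 5 B cell, 1 of 8 neutrophil, 1 of 5 natural killer cell and 5 of 5 dendritic cell markers passed. Cd3d had 385, 687 and 668 counts there, Thy1 had 117, 204 and 184, Ms4a1 had 156, 182 and 144 and Eomes had 59.0, 62.0 and 85.3, whereas Cd3e and Trac had at most 3.

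Several members share stretches of sequence with other genes, where short reads may not tell them apart. The share of 31-base words of a gene's transcripts that also occur on the same strand in a transcript of another gene was 30.04% for Slfn3, 26.8% for Slfn8, 23.6% for Slfn9 and 20.2% for Slfn4. It was 10.3% for Slfn2, 4.92% for Slfn5 and 1.96% for Slfn1. Slfn8 shared 19.1% of its words with Slfn9 and 18.7% with Slfn10-ps, a transcribed pseudogene between Slfn8 and Slfn2. Slfn3 shared 15.1% of its words with Slfn4. With 100-base words the same-strand shares fell to 3.71% for Slfn9, 3.39% for Slfn8, 2.92% for Slfn3 and 0.271% for Slfn4. Most of each sequence was therefore distinct at that length. Counted against the opposite strand, the 31-base share was 13.2% for Slfn5, 6.84% for Slfn3, 3.77% for Slfn9 and at most 1.10% for the other members. With 100-base words it was 6.16% for Slfn5 and 0 for the other members. Those opposite-strand words matter if reads were counted without strand, a setting not given in the sources used here.

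The libraries were quantified a second time by the authors at transcript level, and that quantification placed Slfn9 higher on each scale tried and Slfn3 higher in TPM as deposited. Slfn9 had 354, 269 and 224 counts in the gene tables and 1225, 1570 and 1183 in the second quantification, with 14.9, 9.37 and 9.30 TPM in place of 5.29, 2.07 and 2.71. With 0.1 added, its mean TPM was 3.26 times that of the gene tables and Slfn3's was 1.80 times. The others lay between 0.98 times (Slfn4) and 1.34 times (Slfn5). So 2 of 7 members were more than 1.5-fold higher in the second quantification and 0 were more than 1.5-fold lower, where 54.5% and 1.06% of the 12167 detected genes were.

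That background share follows the median ratio of 1.57 over detected genes, so Slfn2, Slfn8, Slfn5 and Slfn4 were below most genes in this ratio. When TPM was rescaled over protein-coding genes alone, Slfn9 was still higher in the second quantification (32.5 against 16.5) and Slfn3 nearly level (25.1 against 23.8), whereas Slfn2 (466 against 765), Slfn8 (196 against 313), Slfn4 (7.75 against 13.5) and Slfn1 (0.460 against 0.767) were lower there by more than 1.5-fold. Slfn5 was lower too (211 against 271). The direction for Slfn2, Slfn8, Slfn5 and Slfn1 therefore depends on the scaling.

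The second quantification also changed the order of neighbouring members. Slfn5 (72.9 TPM) came above Slfn8 (68.4), and Slfn9 (11.2) above Slfn3 (8.64). Slfn2 stayed first at 160 TPM, Slfn4 was at 2.62 and Slfn1 at 0.172. The wide spread of Slfn9 between libraries was not seen there: its ratio of highest to lowest was 1.24 in place of 1.82, and in replicate 2 it stood at a log2 deviation of 0.04, against -0.27 in the gene tables. Its share of the summed counts of Slfn8, Slfn9 and Slfn10-ps was 5.81%, 3.58% and 3.75% in the gene tables, and 14.3%, 14.0% and 13.2% in the second quantification.

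Among relatives outside the 7, Slfn10-ps had the highest level, below the means of Slfn2, Slfn8 and Slfn5 and above that of Slfn3. It had 46.1, 43.9 and 44.8 TPM (44.9 ± 1.11, SD, n = 3) on 2075, 3811 and 2611 counts. On the TMM scale it had 172, 232 and 188 CPM, highest in replicate 2, where all 6 tested members were below their mean. The ratio of Slfn8 to Slfn10-ps in TPM was accordingly 1.91, 0.976 and 1.30 in replicates 1, 2 and 3, and 1.96, 1.02 and 1.30 in the second quantification. Slfn14, a long member at the next protein-coding position (chr11:83275110-83286726), had 2, 10 and 8 counts, and Unc45b, a myosin chaperone gene on the other flank, 0, 0 and 2. Slfnl1, a Schlafen-like gene on chromosome 4, had 4, 2 and 0 counts, where a count of 0 allows up to 3 (a one-sided 95% limit, counting error only).

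**Figure D3:**
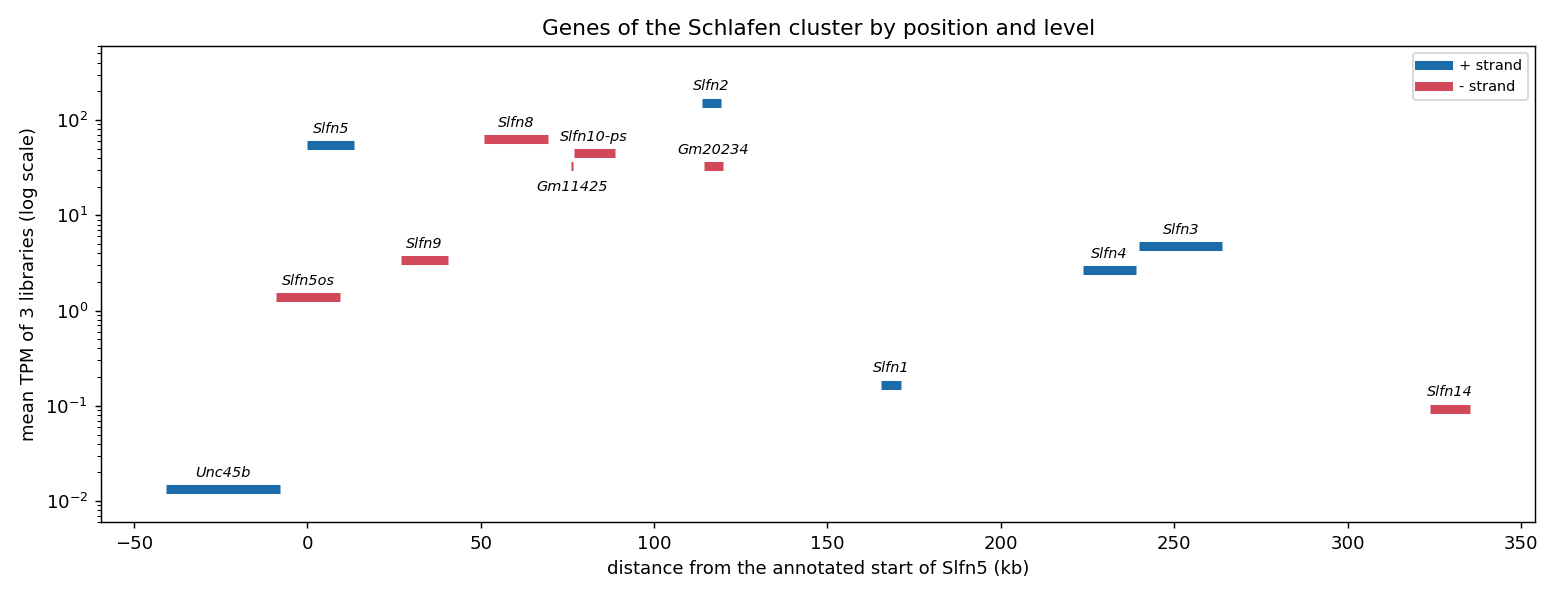
Mean TPM of 3 libraries (log scale) for the Schlafen genes, their relatives and flanking genes on chromosome 11, drawn as bars over their annotated span in kb from the start of Slfn5, blue on the + strand and red on the - strand. Slfn2, Slfn8, Slfn5 and Slfn10-ps lie above 40 TPM, while Slfn1, within the same interval, lies at 0.167.

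Antisense partners overlap 2 members, and the strand setting of the counting is not given in the sources used here. Without strand, reads from the bases that a gene and its antisense partner both cover, introns included, cannot be told apart. Gm20234 is antisense to Slfn2. It shares 0 exon bases with Slfn2, and 550 of its 717 exon bases lie in the Slfn2 intron. The gene tables gave it 325, 242 and 248 counts, or 5.82% to 9.27% of those of Slfn2. The second quantification gave it 3484, 2680 and 3092 counts, 10.7 to 12.5 times as many and 47.8% to 77.4% of those of Slfn2. Slfn5os, antisense to Slfn5 with 559 exon bases shared of the 6326 of Slfn5, had 14.1, 0 and 5.85 counts in the gene tables and 81.2, 35.9 and 25.9 in the second quantification. Of the other genes in the interval, the processed pseudogene Gm11425 had 118, 193 and 181 counts and Gm48434 had 26, 21 and 17. The remaining 10 had at most 1 count in any library. One of them, Mir7679, lies within a Slfn9 intron and had 52, 35 and 31 counts in the second quantification. There, the long noncoding RNA gene 1190001M18Rik had 21, 21 and 9 counts. Gm27598, a microRNA gene within Slfn10-ps on the same strand, had 13, 15 and 13, and Gm48462 had 8.02, 6.02 and 2.

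The transcript tables split 5 members into isoforms. For Slfn5 the full-length transcripts Slfn5-201 and Slfn5-202, both with 884 codons, took 78.0%, 90.4% and 89.9% of the gene's TPM. Slfn5-203 is annotated with 378 codons that run to the end of the transcript without a stop, so its coding part is incomplete. This transcript took the rest, at 16.0, 3.76 and 5.17 TPM. It was highest in replicate 1 in the second quantification too, at 32.1, 14.7 and 14.3 TPM.

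For Slfn8 the full-length pair Slfn8-201 and Slfn8-202, with 910 codons each, took 54.0% ± 2.83 (SD, n = 3), and 53.7% ± 5.83 in the second quantification. The 407-codon transcripts Slfn8-203 and Slfn8-206, which have the same annotated coding and trailing lengths, traded places between libraries. Slfn8-203 was at 29.3, 5.43 and 2.48 TPM and Slfn8-206 at 0.68, 8.57 and 14.5. Their sum was a steadier 34.1%, 32.7% and 29.005% of the gene. The second quantification gave Slfn8-206 no counts and Slfn8-203 31.2%, 23.4% and 18.0%. Slfn8-204, whose annotated coding part ends without a stop, took 14.0% ± 0.797 (SD, n = 3) in the first and 22.1% ± 0.823 in the second quantification.

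Slfn9-201, full length with 910 codons, took 84.6% ± 3.98 (SD, n = 3) of Slfn9, and 96.0% ± 0.98 in the second quantification. For Slfn4 the pair with 602 codons, Slfn4-201 and Slfn4-202, took 94.3% ± 4.98, but the division within the pair differed, at 84.7% and 9.54% in the first and 57.1% and 40.8% in the second quantification. For Slfn3, Slfn3-203, a transcript annotated without coding sequence, took 49.0% ± 6.05 of the TPM in the first and 69.2% ± 3.20 in the second quantification. So the gene's level does not equal that of its coding transcripts, which summed to 2.82, 1.92 and 2.38 TPM.

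**Figure D4:**
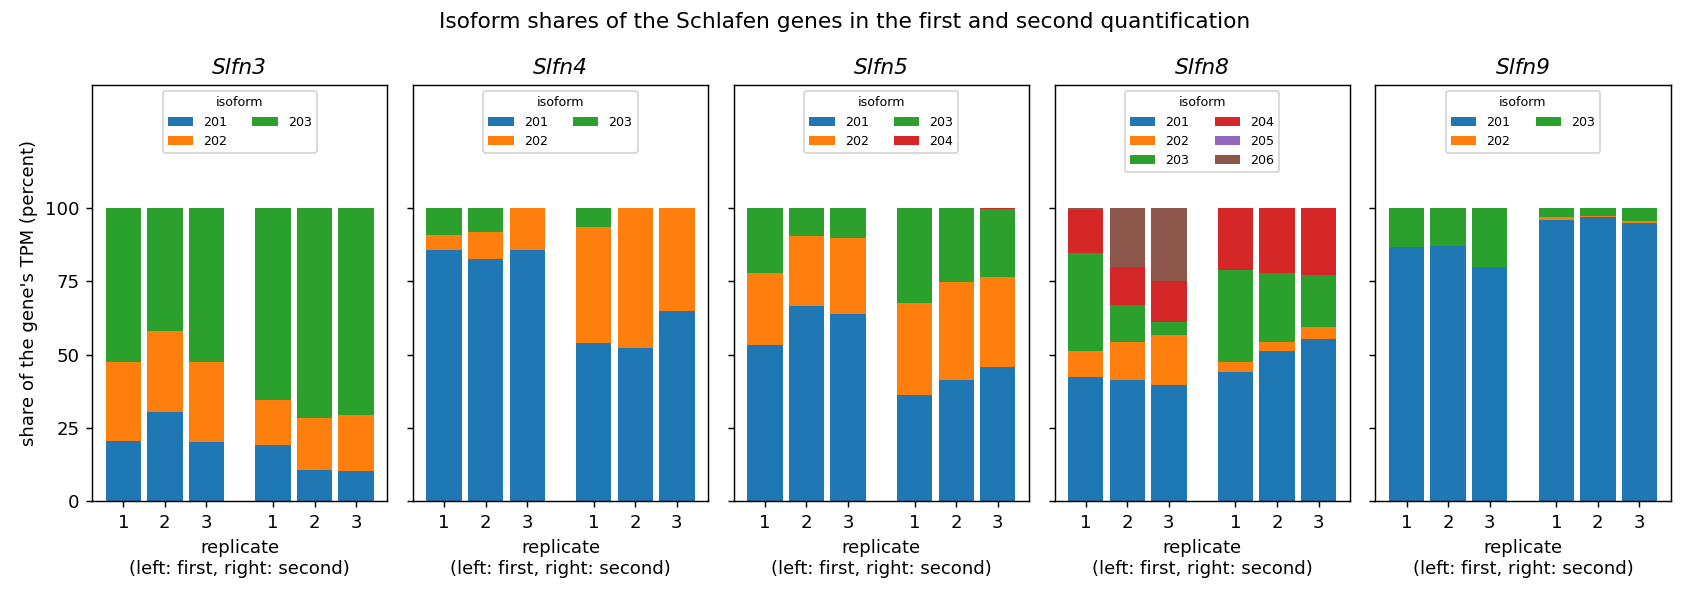
Share of each gene's TPM assigned to its annotated isoforms, as stacked bars adding to 100 percent, for replicates 1 to 3 in the first (left) and second (right) quantification. Isoforms 203 and 206 of Slfn8 exchange shares between libraries in the first quantification only, and isoform 203 of Slfn3 takes the largest share in all 6 bars, from 42.0 to 71.5 percent.

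The library profiles of the members were compared with those of 6033 protein-coding genes with a mean of at least 100 counts, by the distance between log2 deviations over the 3 libraries. The nearest were Gm45902 and Nfe2l1 for Slfn2, Ncbp3 and Cyth3 for Slfn8, Mpp6 and Zfp329 for Slfn5, A630001G21Rik and Stap1 for Slfn3, Eif1a and Olfr114 for Slfn9, and Stk35 and Stx17 for Slfn4. With 3 libraries many genes lie as near: within a distance of 0.1 there were 311 for Slfn2, 340 for Slfn5, 190 for Slfn8, 160 for Slfn3, 33 for Slfn9 and 9 for Slfn4. Within the family the closest pair was Slfn2 and Slfn5, at 0.099, and the farthest was Slfn9 and Slfn4, at 1.14.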

How the data were processed

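The authors deposited, for each library, a gene table and a transcript table of expected counts, TPM and FPKM, and a second transcript table of estimated counts and TPM, on mm10 with GENCODE M21 per the notes deposited with the tables. Tools, versions and strand setting are not given in the sources used here. Gene tables were used as deposited; second-table values were summed per gene; FPKM was not used. Rows naming no mouse gene (1.28%, 0.427% and 0.383% of counts) were left out, which left 10496703, 17687379 and 14806118 expected counts in replicates 1, 2 and 3. Posterior SDs that the authors deposited for the members' expected counts reached at most 4.34. A gene was tested for its spread at a mean of 10 counts or more, after rounding of the expected counts, TMM scaling in edgeR 4.0.16 (factors 1.15, 0.93 and 0.94) and addition of 0.5 counts. The 3 libraries form 1 group, so no test was run; the smallest p that exact sign flips of 3 values allow is 0.25. The scaling and the spread calls were run on simulated counts as a check of the code. The spread set there was smaller than in the data, where the median coefficient of biological variation was 25.8%. It therefore does not show how often real genes would be called. Genes were named by fixed rules: the 7 members, their relatives, genes within and next to the cluster, per list the highest and lowest by mean TPM and the widest and narrowest ratios, and per member the 2 nearest profiles. The members and lists were chosen with earlier results of these data known. Proteins were not analysed here, and 1 searched motif is not reported here.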

Additional observations from a re-analysis of the deposited data

How the results depend on the processing

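Of 101 alternative values, 41 of counts and summaries and 40 of single members or isoforms were labelled the same, and 5 and 15 as moved. For levels, isoform shares and the median deviation, the same meant a move of less than 1 SD between libraries. Counts of genes have no such SD, and their label allowed larger shifts. With library totals, the interferon-stimulated genes 2-fold apart rose from 17 to 25 and were still labelled the same. The order of members and the deviations of single members were not among these values. Levels in TPM rescaled over protein-coding genes were all labelled as moved. Those genes hold only 16.4% to 22.4% of all TPM, so the rescaling changes the unit and fixed this label in advance. With TPM rescaled in this way, the summed level of the members was 1404 and 5 members were more than 1.5-fold apart between quantifications. The share of all genes that far apart on this scale is not given here, so the 5 cannot be set against it. The number of members 2-fold apart between libraries was 1 with library totals (Slfn9) and 1 with no filter on low counts (Slfn1). The shares of all genes under these settings are not given here. Leaving out each replicate in turn gave 0, but a ratio of highest to lowest library cannot rise when a library is left out. That 0 was therefore fixed by the result with all 3 libraries. Without single replicates, the interferon-stimulated genes 2-fold apart numbered 3 (without replicate 2) to 14, against 17 with all 3 libraries. For the same reason such counts can fall but not rise, and the cause of the drop to 3 was not tested. No paired analysis was possible because the 3 libraries form 1 group. Depth limits Slfn1, Slfn14, Slfnl1 and Slfn5os, which have too few counts for a ratio between libraries.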
